A study of Rattus norvegicus with 2 samples.

Results

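Hox genes and the limb factors Pitx1, Tbx4 and Tbx5 were followed through the cells of rat joint cartilage. The members were all genes whose symbol is Hoxa, Hoxb, Hoxc or Hoxd with a number, together with Pitx1, Tbx4 and Tbx5. Of 42 such genes in the RefSeq rat annotation, 33 were listed for at least 1 library, 30 of 19726 genes in the control and 32 of 19250 in the arthritic library, and 29 were listed for both. Hoxa7 was listed for the control library only and Hoxc12, Hoxd12 and Hoxd13 for the arthritic library only. The other Hox genes were not listed for either library and are not analysed here.

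Hox genes encode homeodomain transcription factors that lie in 4 clusters, HoxA to HoxD, and are numbered from the 3' end of a cluster, with low numbers used toward the head and high numbers toward the tail. In the limb the order is reused from shoulder or hip to the digits. Paralogue groups 9 and 10 are linked to the upper segment (stylopod), group 11 to the middle segment (zeugopod) and groups 12 and 13 to the hand or foot (autopod). Pitx1 and Tbx4 are known as hindlimb factors and Tbx5 as the forelimb factor, and the HoxC genes from Hoxc9 upward are used in the hindlimb while Hoxc4 to Hoxc8 lie further forward. Adult connective tissue cells are known to keep much of this code.

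Both libraries were single-cell RNA libraries of cartilage from Lewis rats. The control library came from rats with no treatment, called sham in the design text. The other came from rats with CIA (collagen-induced arthritis), which had received Complete Freund's Adjuvant with type II collagen and were collected on day 14. There was 1 library per group, and the sources used here give neither the number of rats pooled nor the joint or limb, so no difference could be tested and each comparison is of these libraries.

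The control library held 76927821 UMIs (unique molecular identifiers, each marking 1 captured RNA molecule) in 5456 barcodes, and the CIA library 105752977 UMIs in 8622 barcodes. The median was 11873 and 10541 UMIs per barcode, 52 barcode sequences occurred in both libraries, and 5349 and 8409 cells were kept. Cells were put into classes by how many listed markers of a cell type they held, without using the members. In the control and the CIA library this gave 305 and 22 chondrocytes, 486 and 1405 lining cells rich in Prg4 (lubricin), 1586 and 2000 fibroblasts outside the lining, 598 and 470 endothelial cells and 1440 and 3504 leukocytes, and 679 and 598 cells fell in no class. Levels of some of the listed markers are given to describe the classes. They do not test the names, since the same markers set the classes. Col2a1, the main cartilage collagen, stood at 20008 and 15019 CPM (counts per 1000000 UMIs) in chondrocytes against 148 and 33.5 in the fibroblasts outside the lining. Cdh5, an endothelial cadherin, stood at 672 and 872 in endothelium against 6.25 and 4.35 in those fibroblasts. Chondrocytes were few in the cartilage libraries, and their CIA sum of 277317 UMIs limits every value below that rests on it. In a sum over cells, fewer expressing cells and less RNA per cell cannot be told apart unless the shares of cells are given too.

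The promoter sequences of Hoxd10, Hoxd11, Tbx4 and Tbx5 are shown because the results below turn on these genes. Hoxd10 was the Hox gene that differed most between fibroblasts and chondrocytes, Hoxd11 is its neighbour in the cluster and the first of the middle-segment group, and Tbx4 and Tbx5 are the paralogues told apart by limb. Each runs from 250 bases before to 50 bases after the RefSeq start, 5′ to 3′ on the gene's strand, on the GRCr8 assembly, whereas the counts were made on mRatBN7.2. Capitals mark CpG dinucleotides. Hoxd10 is at chr3:80001697-80001996 (+), Hoxd11 at chr3:79992144-79992443 (+), Tbx4 at chr10:71228306-71228605 (+) and Tbx5 at chr12:42395310-42395609 (-).
Hoxd10: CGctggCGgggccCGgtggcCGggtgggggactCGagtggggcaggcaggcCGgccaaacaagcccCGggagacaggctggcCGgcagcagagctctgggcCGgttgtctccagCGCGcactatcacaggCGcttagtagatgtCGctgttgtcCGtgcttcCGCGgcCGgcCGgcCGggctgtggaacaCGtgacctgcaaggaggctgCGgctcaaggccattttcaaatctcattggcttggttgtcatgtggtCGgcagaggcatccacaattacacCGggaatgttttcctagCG
Hoxd11: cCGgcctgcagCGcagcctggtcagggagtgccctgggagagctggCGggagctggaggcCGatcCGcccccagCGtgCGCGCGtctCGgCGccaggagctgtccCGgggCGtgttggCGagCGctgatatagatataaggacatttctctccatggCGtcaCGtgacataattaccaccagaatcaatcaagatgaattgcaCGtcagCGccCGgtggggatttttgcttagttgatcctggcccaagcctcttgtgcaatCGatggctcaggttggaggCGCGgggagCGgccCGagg
Tbx4: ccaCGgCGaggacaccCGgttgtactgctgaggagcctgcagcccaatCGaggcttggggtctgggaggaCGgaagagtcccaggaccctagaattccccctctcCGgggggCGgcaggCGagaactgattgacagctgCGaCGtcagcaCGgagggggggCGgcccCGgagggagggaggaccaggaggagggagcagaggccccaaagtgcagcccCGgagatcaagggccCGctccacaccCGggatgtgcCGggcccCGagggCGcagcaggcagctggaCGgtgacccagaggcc
Tbx5: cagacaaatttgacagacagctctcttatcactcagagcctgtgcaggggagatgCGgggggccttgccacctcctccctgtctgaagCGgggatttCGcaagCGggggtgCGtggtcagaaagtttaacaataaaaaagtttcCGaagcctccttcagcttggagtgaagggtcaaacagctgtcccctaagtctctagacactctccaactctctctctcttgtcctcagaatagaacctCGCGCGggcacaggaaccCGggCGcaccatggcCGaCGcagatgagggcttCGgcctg

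The Hoxd10 promoter held 24 CpG and the Hoxd11 promoter 25. Tbx4 held 20 and Tbx5 14. Over the 23 promoters found for 22 members the median was 21 CpG (range 6 to 49), against a median of 7 over all 33469 promoters in the table. Of all promoters, 18.0% held at least as many CpG as Hoxd10 and 33.5% at least as many as Tbx5. The letters TGATTNAT, a joint site of Pbx and Hox proteins searched on both strands, occurred in the promoters of Hoxd11 and Hoxa2 and in 3.18% of all promoters. TAATCC, the letters bound by Pitx proteins, occurred in 0 member promoters and 7.17% of all.

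In the fibroblasts, the hindlimb factor Pitx1 was the highest of the 3 limb factors, Tbx4 was much lower and the forelimb factor Tbx5 lower again, and both libraries gave the same order. Chondrocytes and lining cells showed the same order as the fibroblasts, apart from the CIA chondrocytes with 1 UMI each of Tbx4 and Tbx5. In control chondrocytes the counting intervals of Tbx4 (2.88–7.90 CPM) and Tbx5 (1.19–4.96 CPM) overlapped. UMIs counted at the 3' end do not grow with transcript length, so CPM of different genes are set side by side, though each also depends on how well the 3' end of that gene is annotated.

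Pitx1, a paired-type homeodomain factor that gives the hindlimb its identity, was read 1649 times in control and 1852 times in CIA fibroblasts outside the lining, or 77.5 CPM (95% counting interval 73.8–81.4) and 81.5 CPM (77.8–85.3). In Prg4-rich lining cells it stood at 75.2 CPM (69.0–81.8) and 68.7 CPM (65.1–72.5). In chondrocytes it stood at 74.0 CPM (65.2–83.7, 255 UMIs) and 72.1 CPM (44.1–111, 20 UMIs). The 3 connective tissue classes thus lay within 68.7 to 81.5 CPM in both libraries. Endothelium had 6.56 and 5.35 CPM and leukocytes 7.65 and 6.05 CPM, with intervals far below those of every connective tissue class.

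Pitx1 was met in 53.6% of control and 49.0% of CIA fibroblasts outside the lining, 45.9% of control chondrocytes, 11 of 22 CIA chondrocytes, and 5.97% and 4.14% of leukocytes. The median depths were 12100 and 10272 UMIs in these fibroblasts, 8985 and 9561 in chondrocytes and 11875 and 9802 in leukocytes. With every cell thinned to 5000 UMIs the shares were 29.7% and 30.3% in the fibroblasts, 30.8% and 19.0% in chondrocytes (the latter 4 of 21 cells, 5.45–41.9%) and 2.64% and 1.82% in leukocytes. Thinning left out no control cell, and 59 fibroblasts, 1 chondrocyte and 215 leukocytes of the CIA library. At equal depth the fibroblast share stayed far above that of the leukocytes in both libraries.

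Tbx4, the T-box factor of the hindlimb, had 171 UMIs in each library's fibroblasts outside the lining, 8.04 CPM (6.88–9.34) and 7.52 CPM (6.44–8.74). Lining cells gave 8.70 and 6.60 CPM, and chondrocytes 4.94 CPM (17 UMIs) and 3.61 CPM (1 UMI). Endothelium held 3 UMIs of Tbx4 in either library, 0.371 and 0.618 CPM. Tbx4 was therefore low, but endothelium lay 21.7-fold (7.29–106) and 12.2-fold (4.10–59.6) below the fibroblasts.

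Tbx5, the T-box factor of the forelimb, had 64 and 77 UMIs in fibroblasts outside the lining, 3.01 CPM (2.32–3.84) and 3.39 CPM (2.67–4.23). Lining cells gave 3.93 and 3.12 CPM, and control chondrocytes 2.61 CPM (9 UMIs). Leukocytes had 0.459 CPM (0.210–0.871) and 0.222 CPM (0.102–0.422). The intervals of fibroblasts and leukocytes did not overlap in either library, so Tbx5 was low in these fibroblasts but above the level found in blood-derived cells. At 5000 UMIs per cell, 1.51% (0.972–2.24) and 1.91% (1.35–2.62) of the fibroblasts held a UMI of Tbx5, against 0.139% and 0.0912% of leukocytes.

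Tbx5 and Pitx1 were found in the same cells as well as apart. Of all fibroblasts, 94 control and 144 CIA cells held Tbx5, and all but 8 and 13 of them held 1 UMI. Pitx1 was found in 60.6% (50.02–70.6) of the control cells with Tbx5 and in 53.3% of those without, and in 56.2% (47.7–64.5) and 49.5% in the CIA library. Cells with Tbx5 were deeper, at a median of 14108 against 12368 UMIs and 13454 against 11105. After thinning to 5000 UMIs, Pitx1 was in 27.3% of control cells with Tbx5 and 29.7% of those without, and in 29.7% and 28.4% in the CIA library. At equal depth the shares with and without Tbx5 lay within each other's intervals. Tbx4 was in 9.57% of control cells with Tbx5 and 10% of the others, and in 11.8% and 7.17% in the CIA library. These Tbx4 shares are given without thinning, so the greater depth of the cells with Tbx5 enters them.

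**Figure D1:**
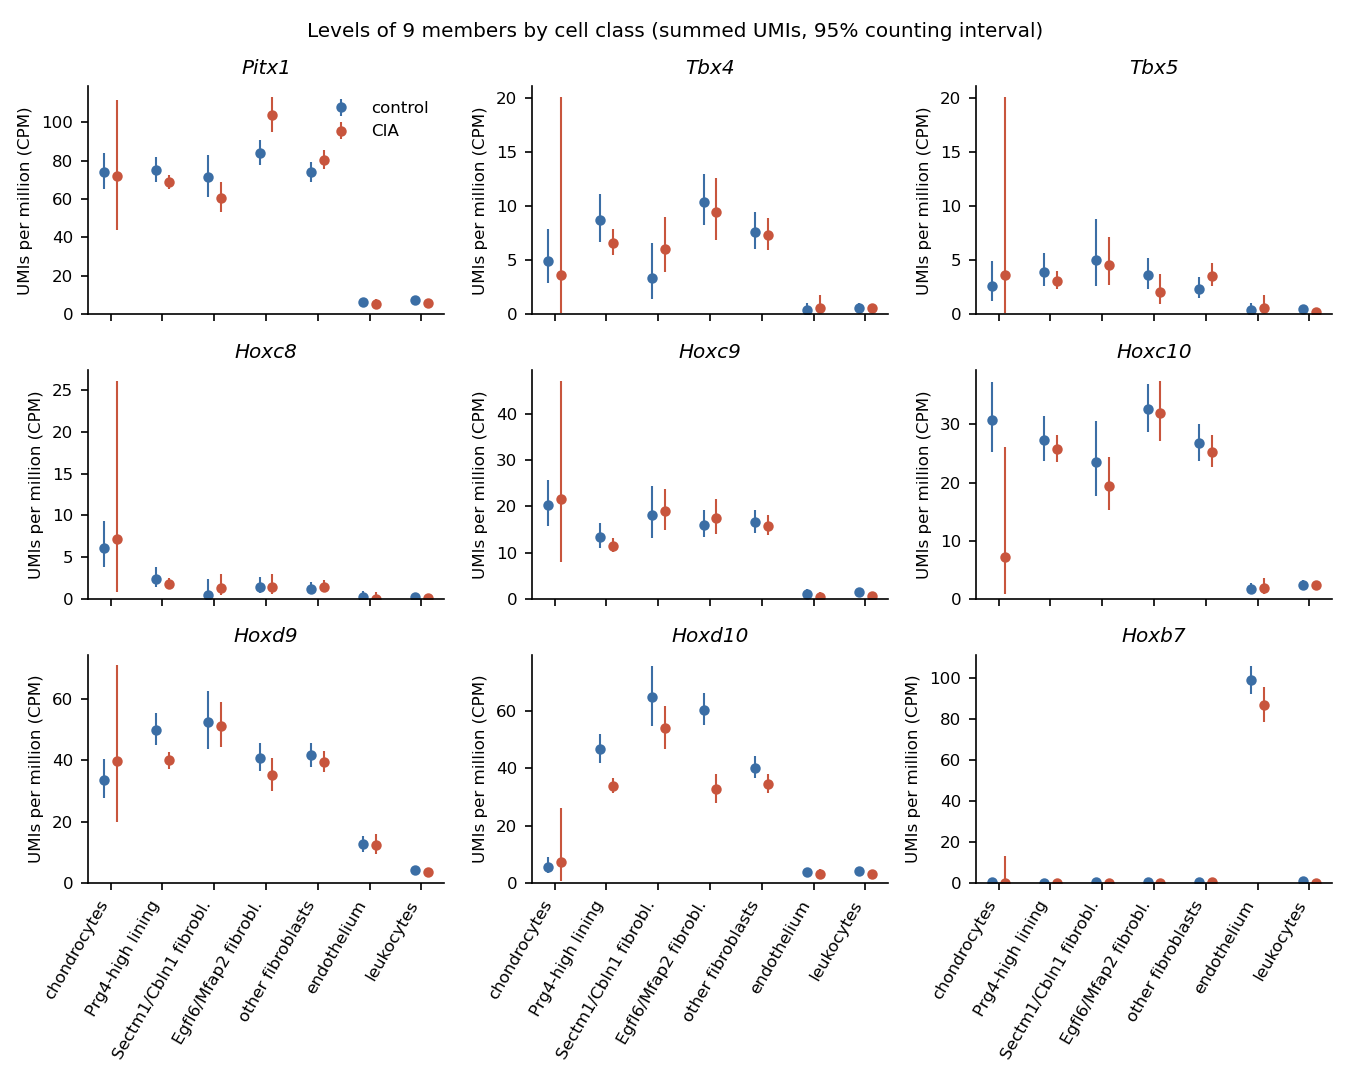
Level of 9 members by cell class, in CPM over summed cells, control in blue and CIA in red, with bars for the 95% counting interval. Pitx1 lies at 60.6 to 104 CPM in chondrocytes, lining cells and the larger fibroblast classes and below 8 CPM in endothelium and leukocytes. Hoxd10 is low in chondrocytes, and Hoxb7 is high only in endothelium among the classes drawn.

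Among the Hox genes, 4 made up nearly all the signal of the fibroblasts, namely Hoxd9, Hoxd10, Hoxc10 and Hoxc9, all of the upper-segment groups 9 and 10. Over the fibroblasts of both libraries Hoxd9 stood at 42.1 CPM, Hoxd10 at 42.0, Hoxc10 at 26.9 and Hoxc9 at 14.9. The next were Hoxc4 at 2.5, Hoxc11 at 1.61, Hoxc8 at 1.55 and Hoxd8 at 1.49 CPM. Hoxd4, Hoxc6, Hoxc5 and Hoxb7 lay between 0.739 and 0.395, and every other Hox member was at 0.268 CPM or less. Hoxd9 and Hoxd10 shared the first place, with 3304 and 3298 UMIs.

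Groups 9 and 10 held 92.7% of the 3140 Hox UMIs of control fibroblasts outside the lining and 92.4% of the 2952 of the CIA library, counted over the 26 Hox genes listed for both. Group 11 held 1.5% and 1.02%, and groups 12 and 13, listed for the CIA library only, added 1 UMI there. Groups 1 to 4 held 2.83% and 2.95%, and groups 5 to 8 held 2.96% and 3.59%. By cluster, HoxD held 64.1% and 62.0%, HoxC 34.8% and 37.3%, HoxB 1.02% and 0.610% and HoxA 0.0318% and 0.102%. The fibroblast code of both libraries was thus one of HoxC and HoxD, with groups 9 and 10 far above the middle-segment group and the hand or foot groups.

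The middle-segment and end-segment genes were near the limit of detection. Hoxc11, used in the hindlimb, had 60 and 66 UMIs in all fibroblasts, 1.90 CPM (1.45–2.44) and 1.41 CPM (1.09–1.79). Hoxd11 had 12 and 3 UMIs, 0.380 and 0.0640 CPM, and Hoxa11 had 1 UMI in either library. Hoxd13 had 1 UMI, in a CIA fibroblast, and Hoxc12 and Hoxd12 had 1 UMI each, in CIA leukocytes. Hoxa13, Hoxb13 and Hoxc13 were not listed, so group 13 could be read from Hoxd13 only.

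Of the HoxC genes of the forward list, Hoxc4 had 92 and 104 UMIs in all fibroblasts (2.91 and 2.22 CPM), Hoxc8 50 and 72 (1.58 and 1.54), Hoxc6 13 and 26 (0.411 and 0.555) and Hoxc5 13 and 20 (0.411 and 0.427). In the hindlimb list, Hoxc9 had 14.9 CPM over both libraries and Hoxc10 26.9, so every measured gene of the forward list lay below both. Gene models of Hoxc4, Hoxc5 and Hoxc6 overlap in RefSeq, so reads could have been split among them and their separate values are uncertain. The models of Hoxa4, Hoxa6, Hoxb3, Hoxb5, Hoxb6, Hoxc11, Hoxd4 and Tbx4 also overlap another model.

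**Figure D2:**
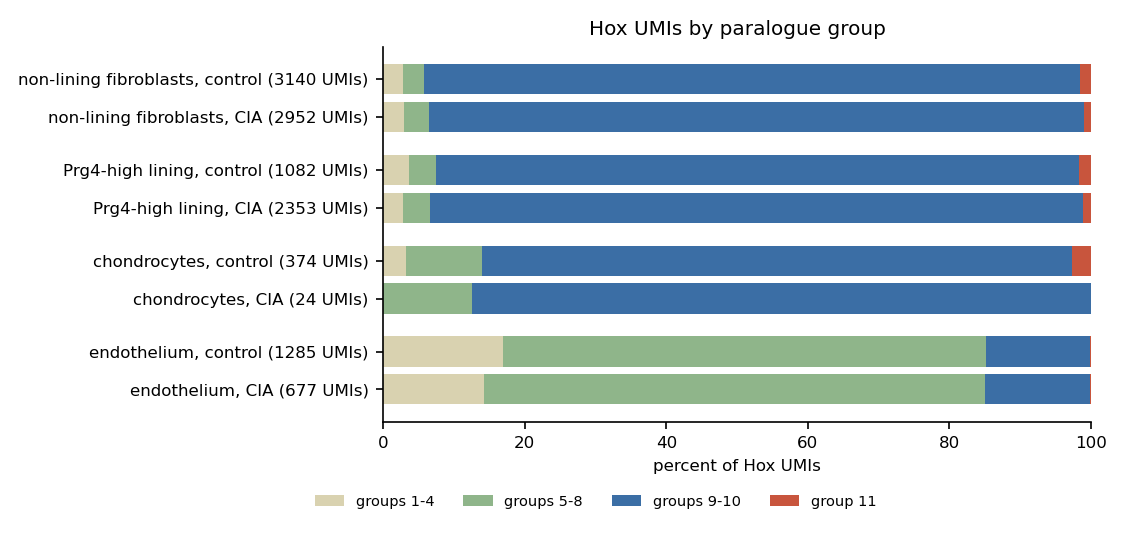
Percent of all Hox UMIs in each paralogue group, by cell class and library, over the 26 Hox genes listed for both, with the number of Hox UMIs beside each bar. Groups 9 and 10 fill 90.8% to 92.7% of the bars of fibroblasts and lining cells, and groups 5 to 8 fill 68.2% and 70.9% of the endothelial bars.

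Within the fibroblasts the levels of Hoxd10, Pitx1 and Tbx4 differed by subset. The subsets, cells with Sectm1 and Cbln1, with Egfl6 and Mfap2, or with Aqp3 and Fam180a, follow names from earlier results of these data and are gates on marker counts, not separate cell types. In control cells Hoxd10 stood at 64.7 CPM (54.8–75.7) in the Sectm1/Cbln1 subset, 60.4 (54.9–66.2) in the Egfl6/Mfap2 subset, 46.7 (41.8–52.0) in the lining and 40.2 (36.5–44.2) in the other fibroblasts. In CIA cells it stood at 53.8 (46.8–61.6), 32.6 (27.8–38.1), 33.8 (31.3–36.5) and 34.6 (31.5–37.9). The Sectm1/Cbln1 subset was the highest in both libraries, with an interval above those of the lining and the other fibroblasts. The Egfl6/Mfap2 subset overlapped it in the control library and lay below its interval in the CIA library.

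Pitx1 had another order. It was highest in the Egfl6/Mfap2 subset, at 83.9 CPM (77.5–90.7) and 104 CPM (94.98–113), and lowest among the 4 large subsets in the CIA Sectm1/Cbln1 cells, at 60.6 CPM (53.2–68.8). Tbx4 was likewise highest in the Egfl6/Mfap2 cells, at 10.4 CPM (78 UMIs) and 9.44 CPM (46 UMIs), with the lining not far below at 8.70 and 6.60 CPM. In control Sectm1/Cbln1 cells Tbx4 had 8 UMIs, 3.36 CPM (1.45–6.62). Tbx5 had 12 UMIs in those control cells, 5.04 CPM, within the Tbx4 interval, so their order there is not resolved. In the CIA Sectm1/Cbln1 cells Tbx4 stood at 6.06 CPM (24 UMIs) and Tbx5 at 4.55 CPM (18 UMIs). The Sectm1/Cbln1 cells were thus high for Hoxd10 and low for Pitx1, though the Pitx1 intervals of control Sectm1/Cbln1 and Egfl6/Mfap2 cells overlapped (61.0–82.9 for the former). Hoxc10 ranged from 19.5 to 32.6 CPM over these subsets and Hoxd9 from 35.1 to 52.5. The Aqp3/Fam180a subset had 35 and 30 cells and 13 UMIs of Hoxd10 in either library, 21.6 CPM (11.5–36.9) and 24.1 CPM (12.8–41.3).

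Hoxd10 and Hoxd9, neighbours in the HoxD cluster, were often found in the same fibroblasts. Of 745 control and 1015 CIA fibroblasts with Hoxd10, 53.4% (49.8–57.1) and 47.3% (44.2–50.4) held Hoxd9, against 28.0% and 26.8% of those without. At 5000 UMIs per cell the shares were 29.6% (25.1–34.3) against 15.97%, and 24.1% (20.5–28.0) against 15.95%. The shares with and without Hoxd10 remained apart at equal depth in both libraries. For the neighbours Hoxc10 and Hoxc9 the thinned shares were 7.45% against 7.24% in the control and 8.39% against 7.14% in the CIA library, so these were not met together more often beyond counting error. Hoxd10 was also uneven among cells: 114 of 2284 control fibroblasts held 4 or more UMIs and the most was 13, while 58 held 4 or more of Hoxd9. In the CIA library the counts were 78 and 72 of 3756 cells.

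Dividing fibroblasts, 195 control and 415 CIA cells with at least 4 proliferation markers, had Pitx1 at 105 CPM (95.5–115) and 109 CPM (102–117), above the 77.5 and 81.5 CPM of the fibroblasts outside the lining. Hoxd10 stood at 60.8 (53.6–68.8) in dividing control cells and at 32.9 (28.9–37.4) in dividing CIA cells, in CPM. These cells were deeper, with a median of 20698 and 16364 UMIs, and whether depth moved the CPM was not tested.

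The lining cells, which make the synovial surface, were compared with the fibroblasts outside the lining to see whether the positional code differs within 1 tissue. A gene was called higher or lower where the ratio was at least 2-fold with its counting interval wholly beyond 1.5-fold, over genes with 30 or more UMIs in both sums together. Of the members, 0 of 11 measured in the control and 0 of 12 in the CIA library were called, where 3.49% and 5.51% of all measured genes were. In the control library the lining had 1.18 times the Hoxd9 level (1.04–1.33) and 2.03 times that of Hoxc8 (1.03–3.91, 17 UMIs). In the CIA library it had 0.700 times the Hoxc9 level (0.591–0.828) and 0.843 times that of Pitx1 (0.786–0.905).

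Lining cells with Clic5, a gene of one part of the lining, differed from the others for Pitx1 in the control library. Pitx1 stood at 130 CPM (108–155, 125 UMIs in 66 cells) against 66.6 CPM (60.3–73.4) in lining cells without Clic5, a ratio of 1.96 (1.59–2.40), just under the 2-fold limit. In the CIA library the levels were 75.3 CPM (65.0–86.8) and 67.7 CPM (63.9–71.8), a ratio of 1.11 (0.949–1.30). For Hoxd10 the ratio of Clic5 cells to the others was 0.780 (0.536–1.10) in control cells, an interval that includes 1, and 0.601 (0.446–0.794) in CIA cells. With stricter gates the CIA ratio of Hoxd10 was 1.01. Of the members, 0 of 6 and 0 of 10 measured were called, against 6.84% and 5.13% of all measured genes. The interval of the Pitx1 ratio lay above 1 in the control library and included 1 in the CIA library, and the difference between the libraries was not tested.

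Chondrocytes carried the same limb factors as the fibroblasts and a Hox code with relatively more HoxC and little Hoxd10. Pitx1 was 0.955 times the fibroblast level (0.834–1.09) in the control library and Hoxd9 0.793 times (0.648–0.963). Hoxc9 was 1.24 times (0.942–1.60) and Hoxc10 1.08 times (0.873–1.33). Of 11 members measured in the control library, 1 was called higher, Hoxc8, and 1 lower, Hoxd10, while 6.48% of all measured genes were called higher and 8.76% lower, 15.2% in all. In the CIA library 0 of 10 measured members were called, against 4.79% of genes.

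Hoxd10, a factor of the upper limb and lower spinal levels, had 20 UMIs in control chondrocytes and 2 in CIA chondrocytes, 5.81 CPM (3.55–8.97) and 7.21 CPM (0.873–26.1). In the fibroblasts outside the lining it had 49.5 CPM (46.6–52.6) and 37.3 CPM (34.8–39.8). The control chondrocytes were 8.53-fold lower (5.49–14.0), and the CIA ratio was 0.194 (0.0234–0.701), so the interval of each library's ratio lay below 1. With looser gates the control ratio was 0.194 in place of 0.117. The chondrocyte level was close to that of leukocytes (4.33 CPM, 3.46–5.36) and endothelium (3.84 CPM, 2.61–5.45) in the same library, and the intervals overlapped. At 5000 UMIs per cell, 1.97% (0.725–4.23) of control chondrocytes and 17.6% (15.7–19.6) of the fibroblasts held a UMI of Hoxd10. Hoxd10 in chondrocytes was thus not distinguishable from the level found in leukocytes.

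Hoxd10 was low in both of the larger kinds of control chondrocyte. In control chondrocytes with much Chad and little Col1a1 (228 cells, limits of 1000 and 10000 CPM taken from earlier results of these data), Hoxd10 had 7 UMIs, 3.44 CPM (1.38–7.09), and Hoxd9 37.4 CPM (29.4–46.8). In those with much Col1a1 and little Chad (47 cells), Hoxd10 had 5 UMIs, 5.64 CPM (1.83–13.2), of which 3 were in a single cell, and Hoxd9 18.1 CPM (10.3–29.3). Both kinds held Hoxd9 above Hoxd10, though in the Col1a1-rich kind the intervals of these genes overlapped. The CIA chondrocytes split into 9 and 11 such cells, with 0 UMIs and 1 UMI of Hoxd10, too few to rank.

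Hoxc8, a gene of the trunk group, was higher in chondrocytes. It had 21 UMIs in control chondrocytes (6.10 CPM, 3.77–9.32) and 25 in the fibroblasts outside the lining (1.18 CPM, 0.761–1.74), a ratio of 5.19 (2.76–9.65). The CIA chondrocytes had 2 UMIs (7.21 CPM), a ratio of 4.97 (0.578–19.4), so the CIA value lay close to the control value but its interval included 1. Hoxc5, whose model overlaps that of Hoxc6, had 8 UMIs in control chondrocytes, 2.32 CPM (1.00–4.58), against 0.411 CPM in all fibroblasts. Hoxc11 had 10 UMIs and a ratio of 1.63 (0.722–3.32). Hoxd11 and Hoxa11 had 0 UMIs in both chondrocyte sums, which allows up to 1.07 CPM in control and up to 13.3 CPM in CIA chondrocytes.

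In control chondrocytes, groups 9 and 10 held 83.4% of 374 Hox UMIs and groups 5 to 8 held 10.7%, and HoxC held 59.9% and HoxD 39.0%. In the CIA chondrocytes groups 9 and 10 held 87.5% and HoxC 45.8%, of 24 UMIs only. HoxC made up most of the chondrocyte Hox UMIs in the control library, where it was 34.8% in the fibroblasts. The intervals of Hoxc9 and Hoxc10 reached both sides of the fibroblast level, while Hoxd10 was lower. The HoxC share is thus not a trait separate from the low Hoxd10. The mural gate, meant for the cells around small vessels, held 28 and 53 cells, with Pitx1 at 53.1 CPM (31.5–83.9) and 38.7 CPM (25.3–56.7). A single cell held 33.3% of the control Pitx1 UMIs. The median of fibroblast markers held by these cells was 7 of 10. In the control cells Clic5 stood at 147 CPM, against 148 in the lining and 2.82 in the fibroblasts outside it. In the CIA cells it stood at 5.95 CPM, and Prg4 stood at 7212 and 6035 CPM. The class may thus not be mural cells only, and the part of fibroblasts or lining cells in its values was not tested.

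Endothelium, which lines the blood vessels, had another Hox code, made of HoxB genes with Hoxb7 far above the rest. Its total Hox level was similar to that of the fibroblasts, 159 and 139 CPM against 148 and 130. HoxB held 84.4% of its 1285 Hox UMIs in the control library and 83.0% of 677 in the CIA library, and groups 5 to 8 held 68.2% and 70.9%. Of 15 members measured in each library, 5 were called higher and 9 lower than in the fibroblasts in the control library, and 3 higher and 9 lower in the CIA library. Of all measured genes, 15% and 15.3% were called higher and 12.1% and 11.8% lower, 27.1% in all in each library. Some members reached the UMI minimum only through the class where they were high, such as Hoxb8 in endothelium and Hoxc4 in fibroblasts. For such members a call was likely beforehand, so these counts describe the 2 classes and test nothing.

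Hoxb7 had 800 and 422 UMIs in endothelium, 99 CPM (92.3–106) and 86.9 CPM (78.8–95.6), and 14 and 8 UMIs in the fibroblasts outside the lining, 0.658 and 0.352 CPM. The ratios were 150 (89.1–276) and 247 (124–576). It was met in 58.7% and 47.4% of endothelial cells, at a median of 10684 and 8115 UMIs, and in 1.11% and 0.285% of leukocytes. Thinned to 5000 UMIs, the endothelial shares were 33.6% and 32.1%, so the libraries came together at equal depth, with 52 CIA endothelial cells left out. Hoxb7 had the highest ratio to the fibroblasts of all measured members in both libraries. The wide intervals of Hoxb8, given below, contain those of Hoxb7, so this rank is not resolved.

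Hoxb4, also known in blood stem cells, had 129 and 56 UMIs in endothelium, 15.97 and 11.5 CPM, and ratios of 48.5 (22.9–123) and 65.5 (24.2–249) over the fibroblasts. Hoxb8 had 35 and 30 UMIs, 4.33 and 6.18 CPM, against 1 fibroblast UMI in each library. The ratios were 92.1 (15.5–3742) and 140 (23.3–5728). Hoxb2 had 53 and 18 UMIs, 6.56 and 3.71 CPM, and Hoxb9 34 and 14 UMIs, 4.21 and 2.88 CPM. Both were called in the control library, with ratios of 69.8 (18.4–591) and 89.5 (15.0–3638), and had fewer than 30 UMIs over both sums in the CIA library. With stricter gates the control calls of Hoxb8 and Hoxb9, which rest on 1 fibroblast UMI each, were lost. Hoxb3 and Hoxb5 had 19 and 7 UMIs in control and 8 and 11 in CIA endothelium.

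The HoxB genes did not behave alike in leukocytes. Hoxb7 in control leukocytes was 0.876% of the endothelial level and Hoxb2 2.33% (0.466–7.2), near the median of 1.37% over 9 endothelial markers (range 0.837% to 9.01%). Hoxb4 was 19.8% (14.4–27.0) of the endothelial level, and 21.2% (15.1–30.0) in the CIA library, where the markers had a median of 0.747% and a highest value of 8.30%. Its own levels in leukocytes were 3.16 CPM (2.42–4.05) and 2.44 CPM (1.99–2.97), against 0.329 and 0.176 in the fibroblasts. In macrophages alone Hoxb4 stood at 4.00 and 2.59 CPM. Hoxb4 thus lay above the range of the endothelial markers in the leukocytes of both libraries. These markers had set the endothelial gate, and leukocytes were allowed few of them. Their percents were therefore held low by the gates, and Hoxb4, which was in no gate, cannot be judged against them.

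The members high in fibroblasts were called lower in endothelium in both libraries, namely Hoxc4, Hoxc9, Hoxc10, Hoxd9, Hoxd10, Pitx1, Tbx4 and Tbx5, with Hoxc11 in the control and Hoxc8 in the CIA library. Pitx1 was 11.8-fold lower (8.99–15.8) and 15.2-fold lower (10.4–23.4). Hoxc10 was 17.7-fold lower (10.2–33.3) and 14.0-fold lower (7.34–30.8). Hoxc8 had 0 UMIs in CIA endothelium and was at least 2.35-fold lower. RNA of other cells can be captured with any cell, so these levels were set beside those of fibroblast markers measured the same way.

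Over the 10 members with 30 or more UMIs in the fibroblasts, the endothelial level had a median of 8.10% of the fibroblast level in the control and 8.25% in the CIA library. Over 10 fibroblast markers, such as the collagen genes and Lum, it was 6.86% and 8.44%. In leukocytes the members had medians of 9.98% and 8.05% and the markers 8.98% and 7.15%. The medians of members and markers thus lay close together in these classes. The markers had set the fibroblast gate, and the members were kept for their fibroblast UMIs. Both lists were thus chosen by the fibroblast side, and the markers are a rough yardstick only. In control cells of the granulocyte lineage they were further apart, 14.7% for the members and 8.04% for the markers. Whether the members' level in these cells is captured RNA of other cells was not tested.

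In endothelium Hoxd9 and Hoxd8 had percents above those of all the fibroblast markers. The fibroblast gate held the percents of its markers low, so these genes cannot be judged against them. Hoxd9 had 102 and 60 UMIs there, 12.6 CPM (10.3–15.3) and 12.4 CPM (9.43–15.9), or 29.7% (23.99–36.5) and 30.7% (23.2–39.8) of the fibroblast level, above the highest fibroblast marker at 23.5% and 19.9%. In leukocytes it was 10.1% and 8.76%. At 5000 UMIs per cell, 6.69% and 5.02% of endothelial cells held Hoxd9, against 1.46% and 1.37% of leukocytes. Hoxd8 was 3.09 CPM (25 UMIs) and 2.47 CPM (12 UMIs) in endothelium, 219% (124–386) and 176% (82.3–350) of the fibroblast level, and was not called. At equal depth the share of cells with Hoxd9 was thus higher in endothelium than in leukocytes in both libraries.

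**Figure D3:**
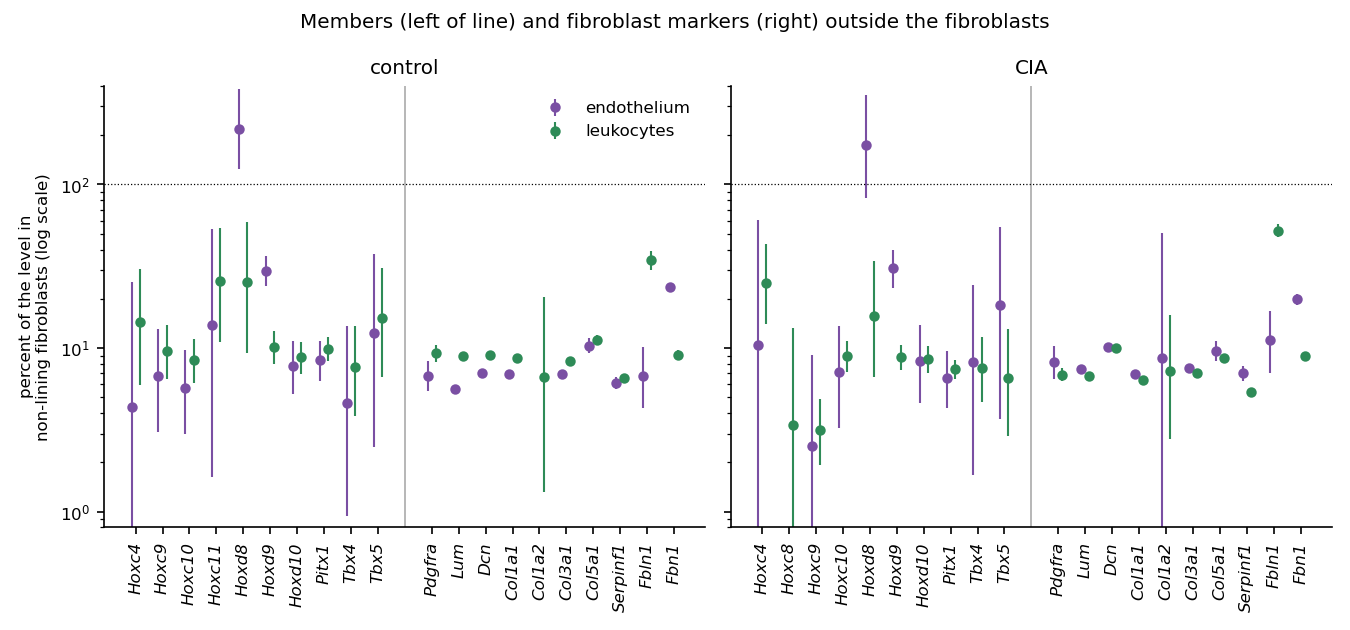
Level in endothelium (purple) and leukocytes (green) as a percent of the level in fibroblasts outside the lining, on a log axis, for the 10 members with 30 or more fibroblast UMIs (left of the line) and 10 fibroblast markers (right), with 95% counting intervals; values of 0 are not drawn. Most members lie among the markers, while endothelial Hoxd9 (29.7% and 30.7%) and Hoxd8 (219% and 176%) lie above them. The markers set the fibroblast gate, which holds their percents low, so they are a rough yardstick only.

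Between the CIA and the control library the positional code of the connective tissue differed little. Of the members, 0 of 4 measured in chondrocytes, 0 of 11 in the lining, 0 of 12 in fibroblasts outside the lining and 0 of 9 in endothelium were called. Of all measured genes, 4.31%, 2.53%, 1.53% and 1.78% were called in these classes. In the subsets, 0 of 7 were called in the Sectm1/Cbln1 cells (0.747% of all genes), 0 of 7 in the Egfl6/Mfap2 cells (1.37%), 0 of 11 in the other fibroblasts (1.41%), 0 of 15 in all fibroblasts (2.66%) and 0 of 1 in mural cells (3.23%). With so few of all genes called, a count of 0 of these few members lies near the background, and the sizes of the ratios are given below.

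Over the fibroblasts outside the lining, Pitx1 was 1.05 times the control level in CIA (0.983–1.12), Tbx4 0.936 times (0.752–1.16) and Tbx5 1.13 times (0.797–1.59). Hoxc9 was 1.00 times (0.862–1.16), Hoxc10 0.915 times (0.816–1.03) and Hoxd9 0.949 times (0.865–1.04). These 6 intervals included 1, and together they reached from 0.752 to 1.59. The median log2 ratio of the 12 measured members was −0.04, against 0.06 over all 12123 genes measured there.

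Other members were also lower in some CIA fibroblast classes, such as Hoxd9 in the lining, given below. Hoxd11, the neighbour of Hoxd10, had 4 UMIs in control and 0 in CIA Egfl6/Mfap2 cells, with overlapping intervals. Hoxd10 had an interval below 1 in the fibroblasts outside the lining. Its level was 49.5 CPM in control and 37.3 CPM in CIA fibroblasts outside the lining, 0.752 times (0.687–0.825), and 46.7 and 33.8 CPM in the lining, 0.723 times (0.633–0.828). In the Egfl6/Mfap2 subset it was 0.540 times (0.448–0.649) and in the other fibroblasts 0.860 times (0.753–0.983). These 4 intervals lay below 1 while none of the ratios reached the 2-fold limit. In the Sectm1/Cbln1 subset the ratio was 0.832 (0.673–1.03). The share of Egfl6/Mfap2 cells with a UMI, at 5000 UMIs per cell, was 21.8% (18.6–25.4) in the control and 10.9% (8.16–14.1) in the CIA library, with 16 CIA cells left out. The number of cells just inside the fibroblast gate (817 and 1086) and just outside it (779 and 855) was large. For the fibroblasts outside the lining, the effect of gate limits is given with the alternatives. The ratio of the Egfl6/Mfap2 subset has no alternative, so its dependence on the gate is not shown.

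Lining cells also had less Hoxd9 in CIA, 40.0 against 49.9 CPM, 0.800 times (0.705–0.910), and similar Hoxc10, 0.941 times (0.796–1.12). The member median in the lining was −0.33 on the log2 scale, against 0.04 for all measured genes. In endothelium Hoxb7 was 0.877 times (0.778–0.988), Hoxb4 0.722 times (0.518–0.995) and Hoxb2 0.565 times (0.311–0.980), with a member median of −0.31 against 0.08. Endothelial Hoxd9 was 0.978 times (0.699–1.36). In chondrocytes Pitx1 was 0.974 times (0.585–1.54), Hoxd9 1.18 times (0.572–2.19) and Hoxc9 1.06 times (0.378–2.44), while Hoxc10 had 106 UMIs in control and 2 in CIA chondrocytes, both in a single cell, 0.234 times (0.0280–0.868). Without the 1 cell richest in Hoxd9 its chondrocyte ratio was 0.798, and with stricter gates it was 2.13. With TMM factors, which shift all chondrocyte ratios by −0.30 on the log2 scale, Hoxd9 and Hoxc9 lay below 1.

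In leukocytes 1 of 7 measured members was called, Hoxc9, from 1.58 to 0.518 CPM (31 and 21 UMIs), 0.328 times (0.179–0.589), where 6.28% of all measured genes were called. Its leukocyte level was 9.61% of the fibroblast level in the control and 3.15% in the CIA library, beside marker medians of 8.98% and 7.15%. Whether captured RNA of fibroblasts makes up this level was not tested. The call was lost with stricter or looser gates, and the ratio was 0.522 with doublet calls kept.

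**Figure D4:**
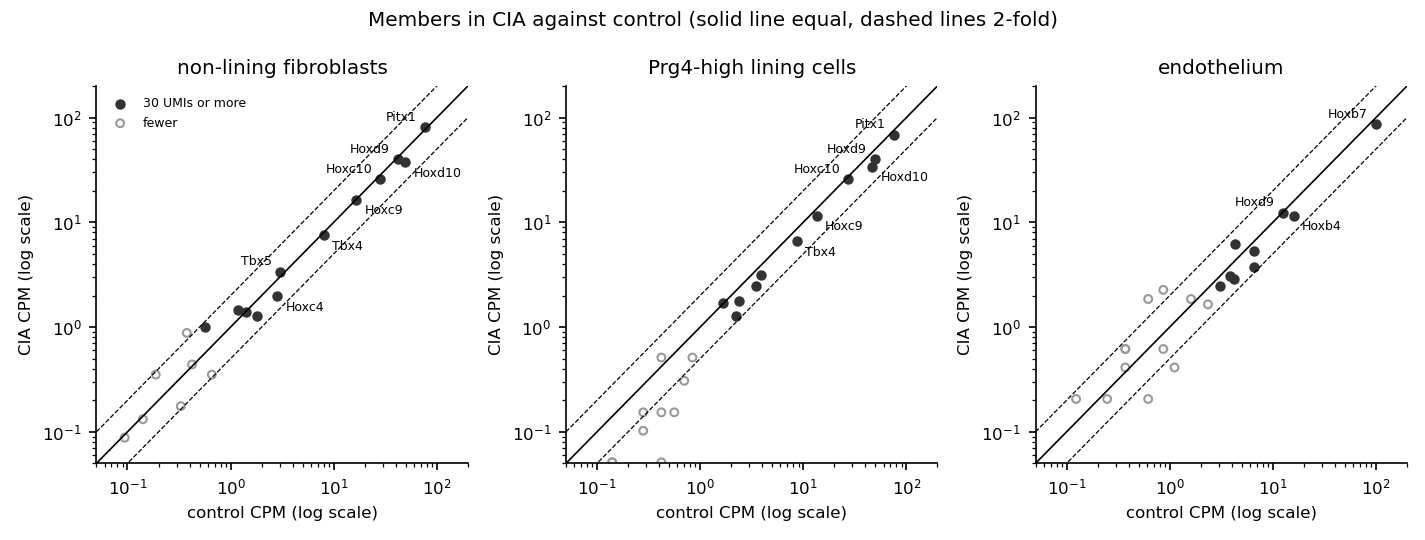
Level of each member in CIA against control, on log axes of CPM, for fibroblasts outside the lining, lining cells and endothelium; filled points have 30 or more UMIs over both libraries, names are given from 100 UMIs and members with 0 UMIs in either library are not drawn. All filled points lie between the dashed 2-fold lines, and Hoxd10 lies below the line of equality in both fibroblast panels.

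The partners of the Hox proteins and other limb patterning genes were read from lists of 12 and 40 genes, of which 12 and 32 were listed for both libraries. Between the libraries, 0 of 11 cofactors and 0 of 23 patterning genes were called in fibroblasts outside the lining, and 0 of 11 and 0 of 23 in the lining. Prrx1 and Prrx2, homeodomain factors of limb mesenchyme, stood at 143 and 190 CPM in control fibroblasts and 153 and 184 CPM in CIA fibroblasts. Shox2, a factor of the upper limb segment, stood at 59.5 and 54.2 CPM. Pbx3, a partner of Hox proteins, stood at 48.9 and 43.1 CPM. In control chondrocytes 5 of 23 patterning genes were called higher than in the fibroblasts (Gli1, Ptch1, Irx5, Dlx5 and Runx1) and 5 lower (Prrx1, Prrx2, En1, Twist2 and Wnt5a), where 6.48% of all measured genes were called higher and 8.76% lower. Of 11 cofactors, Tgif1 was called higher and Pbx3 and Meis3 lower there. Ptch1, the hedgehog receptor, stood at 54.0 and 39.7 CPM in chondrocytes against 4.18 and 3.34 in the fibroblasts. In endothelium 17 of 22 measured patterning genes were called lower than in fibroblasts in either library, where 12.1% and 11.8% of all measured genes were. Some of them, such as Tbx15 and Wnt5a, reached the UMI minimum through the fibroblasts only, so a call was likely beforehand. Ptch1 was called higher in endothelium in both libraries, at 12.9 and 14.8 CPM. Tbx3, a T-box factor, was called higher in CIA endothelium, at 5.15 against 1.80 CPM in the fibroblasts.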

How the data were processed

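The authors deposited raw UMI counts, 1 matrix per library with Ensembl identifiers and symbols, from cartilage dissociated with TrypLE; the kit was a Chromium Single Cell 3' kit per the labels' protocols. Per the submitters' processing notes the build was mRatBN7.2. How reads were aligned, counted, assigned to a strand and called as cells is not given in the sources used here. A limit of 20% mitochondrial UMIs, with a minimum of 200 genes, removed 45 control and 47 CIA cells, and Scrublet calls removed 62 (1.15%) and 166 (1.94%) as doublets. No cell had fewer than 5095 (control) or 4365 (CIA) UMIs, so cells had been filtered before deposit.

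A cell was placed by its number of detected markers: at least 5 immune, 6 endothelial, 9 chondrocyte, 7 fibroblast or 5 mural markers, and at least 5000 CPM of Prg4 for the lining. The limits were set after the marker distributions had been seen, so a class is a range: of chondrocytes, 62 control and 9 CIA cells lay just inside the limit and 71 and 10 just outside, and 74 and 135 lining cells had Prg4 within 1000 CPM above its limit. Members, gene lists and fibroblast subsets were chosen with earlier results of these data known. The Leiden alternative used 2000 variable genes, 30 principal components, 15 neighbours and resolution 0.5.

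UMIs were summed per library and class and scaled to CPM over the 18147 genes listed for both. With 1 library per group no test was run. Intervals are exact 95% intervals (Poisson for levels, conditional binomial for ratios, Clopper-Pearson for shares) and reflect the counting of UMIs or cells, not how cells or rats vary. Called means at least 2-fold with the interval wholly beyond 1.5-fold, over genes with 30 or more UMIs in both sums. A fold against 0 UMIs used a floor of 3 counts per sum. Genes named were Pitx1, Tbx4, Tbx5, the 12 Hox members highest in fibroblasts, all HoxC members, groups 10 to 13 and any member called. Promoters came from RefSeq (GRCr8). The code was tested on simulated counts. Python 3.11.15, numpy 2.4.6, scipy 1.17.1, pandas 2.3.3, scanpy 1.11.5, matplotlib 3.10.9 and edgeR 4.0.16 (TMM factors, R 4.3.3) were used. Alternatives changed the gates, the filters, the doublet step, the scaling, the UMI minimum, the size rule and the depth.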

Additional observations from a re-analysis of the deposited data

Results flagged for a closer look

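Pitx1 lay on opposite sides of the control level in 2 classes of the CIA library, with both counting intervals beyond 1. In the Egfl6/Mfap2 fibroblasts the CIA level was 1.24 times the control level (1.10–1.39, 506 against 628 UMIs), and in leukocytes it was 0.790 times (0.642–0.975, 245 against 150 UMIs). The difference between the classes was not tested, since there was 1 library per group. The leukocyte level was 9.87% of that of the fibroblasts outside the lining in the control library and 7.42% in the CIA library, beside medians of 8.98% and 7.15% for fibroblast markers.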

How the results depend on the processing

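No paired analysis was possible because there was 1 library per group. Over all alternatives, 154 of 168 counts of called members, 294 of 311 ratios, 761 of 840 levels and 79 of 126 shares stayed within their limits (1.5 times for counts, the reported value's 95% counting interval for the others), and 0 called values changed direction. Of 40 ratios, 11 passed 1 under some alternative, of which 1 (Hoxd10 in CIA Clic5 lining, 1.01 with stricter gates) had a reported interval that excluded 1. The other 10 were, between CIA and control, Pitx1 and Hoxd9 in chondrocytes (0.790 to 1.31 and 0.798 to 2.13), Pitx1 and Hoxc10 in the lining, Hoxc9 and Hoxd9 in fibroblasts outside the lining and Hoxd9 in endothelium, and, against fibroblasts, Pitx1 in chondrocytes of both libraries and Hoxd10 in CIA lining. Between CIA and control, the count of called members in chondrocytes went from 0 to 1 (Hoxc10) without the 1 cell with most UMIs of the gene and with a 1.5-fold rule beyond 1.0, and that in endothelium from 0 to 1 (Hoxb2) with the latter. In leukocytes the call of Hoxc9 was lost (0) with stricter gates, looser gates, Leiden clusters, doublets kept or 100 UMIs as the minimum, and with 10 UMIs there were 2 calls (Hoxb7 and Hoxc9). With looser gates, Hoxd10 in control chondrocytes was 0.194 times the fibroblast level in place of 0.117, 1 member (Hoxd10) was called lower in CIA chondrocytes, 1 member (Pitx1) was called higher in control Clic5 lining, the endothelial share of groups 5 to 8 was 64.1% (control), and the HoxB share was 79.3% and 78.9%. With Leiden clusters, 1 member (Hoxc8) was called higher in CIA chondrocytes, groups 9 and 10 held 90.4% in CIA lining and HoxB held 86.6% in control endothelium. With stricter gates, or a mitochondrial limit of 10%, 3 members in place of 5 were called higher in control endothelium (Hoxb2, Hoxb4 and Hoxb7). Pitx1 in Tbx5 cells was 27.3% and 29.7% thinned to 5000 UMIs, and 37.5% and 38.5% with at least 2 UMIs. TMM scaling lowered every CIA-to-control ratio in chondrocytes by a log2 shift of −0.30, and moved other classes by at most −0.08. Across alternatives Hoxd10 in CIA against control fibroblasts outside the lining ranged from 0.714 to 0.809, and Hoxb7 in endothelium over fibroblasts from 119 to 150 (control) and 232 to 449 (CIA). Against fibroblasts, endothelial Pitx1 was 0.0465 and 0.0355 times with Leiden clusters in place of 0.0846 and 0.0657, and CIA Hoxb4 114 and 119 times with stricter gates and Leiden clusters in place of 65.5. The number of cells, 22, limits the CIA chondrocytes.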

Other observations

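A group of Prg4-rich cells that mostly fell short of the fibroblast gate had the highest Pitx1 level of the clusters. In an alternative clustering of all cells, cluster 13 held 208 control and 26 CIA cells, of which 46.6% and 30.8% passed the fibroblast gate. Its median Prg4 level was 22159 and 12643 CPM, and 63.0% and 38.5% of its cells held a UMI of Clic5. Pitx1 stood at 175 CPM (158–193) in control cells and at 130 CPM (83.3–193) in CIA cells of this cluster. Tbx5 stood at 13.4 CPM (9.02–19.1, 30 UMIs) in the control cells, against 3.93 CPM (2.61–5.68) in the lining cells of the gates, while Hoxd10 stood at 24.1 CPM (18.1–31.4) against 46.7 CPM. The CIA cells held 1 UMI each of Tbx5 and Hoxd10. This cluster was singled out after its values had been seen.

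The cells that fell in no class, 679 control and 598 CIA cells, had Pitx1 at 58.5 CPM (54.2–63.0) and 58.4 CPM (53.4–63.7) and Hoxb7 at 17.9 CPM (15.6–20.5) and 16.7 CPM (14.1–19.7), both between the fibroblast and the endothelial level. Of 10 measured Hox cofactors, 2 (Tgif1 and Tgif2) were called lower in CIA than in control leukocytes, where 6.28% of all measured genes were called in either direction, at 134 and 41.7 CPM for Tgif1 in control and CIA, and 10.7 and 1.85 CPM for Tgif2. Of 4 measured cofactors in chondrocytes, Tgif1 was called lower in CIA, at 97.6 and 21.6 CPM, where 4.31% of genes were called. The CIA level there rests on 6 UMIs, against 336 in the control.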
